A study of Mus musculus with 21 samples.

Results

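The respiratory chain of the inner mitochondrial membrane is built from subunits of dual genetic origin, and the 39 genes described here are nuclear-encoded subunits of its complexes I to IV, out of 55400 genes in the table. They were chosen by name from the known composition of the complexes, at a time when earlier results of these data were known. They were matched to the Ensembl identifiers of the table through their symbols, and all 39 were found. Complex I was represented by 21 genes, namely 6 core subunits, which carry the redox centres or belong to the conserved catalytic part, and 15 accessory subunits. Complex II was represented by 4 genes, complex III by 6 and complex IV by 8, with Ndufa4 placed in complex IV, where its protein resides despite a name given for complex I.

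The libraries came from wild-type C57BL/6 mouse embryonic stem cells, grown on mitomycin-treated mouse embryonic fibroblasts and then differentiated as embryoid bodies towards motor neurons (MNs) of the hypaxial motor column with retinoic acid, the Sonic hedgehog agonist SAG and the Notch pathway inhibitor DAPT. Untreated cells were collected at D4, at 8 h after D4 (D4H8), at D5 and at D6, and cells exposed to GSKJ4, an inhibitor of the Kdm6 family of H3K27 demethylases, for the day before collection were taken at D4H8, D5 and D6. Retinoic acid and SAG were given from D2 to all 7 groups, and DAPT was added at D4, when the D4 libraries were collected. At D5 the medium was changed to one with DAPT but without retinoic acid and SAG. Differences of D6 from earlier stages cannot be told apart from this change, nor those of later stages from D4 from exposure to DAPT. The concentration of GSKJ4 is not given in the labels. Each group held 3 libraries labelled as biological replicates, 21 in all, and polyA RNA of the whole culture was sequenced without sorting.

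Total counts per library ran from 14982115 to 34383842, with a median of 16238435, and each of the 39 members had between 81 and 10443 counts in every library. MN identity was checked with 7 marker genes (Mnx1, Isl1, Isl2, Lhx3, Slc18a3, Chat and Tubb3), and all 7 rose from D4 to D6, for example Isl1 by 5.13 and Slc18a3 by 8.13 on the log2 scale. Pluripotency markers summed to between 10.8 and 281 FPKM (fragments scaled by gene length and library depth) and feeder fibroblast markers to between 4.34 and 27.3 FPKM over the 21 libraries. Treated D4H8 replicate 2 stood apart for the members and for the mitochondrial genes, D5 replicate 1 had few mitochondrial reads, D4 replicate 1 had many, and treated D5 replicate 2 had 39381 genes at 0 against 29339 to 32805 elsewhere.

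As background, complex I (NADH:ubiquinone oxidoreductase) and complex II (succinate dehydrogenase, also an enzyme of the citric acid cycle) feed electrons to ubiquinone, complex III passes them to cytochrome c and complex IV reduces oxygen. Complexes I, III and IV also hold subunits encoded by the mitochondrial genome, whereas complex II is wholly nuclear-encoded. Neurons are known for a high dependence on this chain, and many of its nuclear genes carry promoter motifs for the transcription factors NRF1, GABP and YY1.

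The promoters of 5 members that passed the test between D4 and D6 and carry such letters are shown because they allow the shared elements to be seen directly. Each line gives the 250 bases before the RefSeq gene start (GRCm38.p6, 5′ to 3′ on the gene's strand), with matches in capitals, GCGC, any 2 bases and GCGC again for NRF1 and CCGGAAG or its reverse complement CTTCCGG for GABP. Sdhd lies at chr9:50603850-50604099, Sdha at chr13:74350241-74350490, Ndufv2 at chr17:66101560-66101809 and Cox6a1 at chr5:115348959-115349208, all on the minus strand, and Ndufb7 at chr8:83566508-83566757 on the plus strand.
Sdha: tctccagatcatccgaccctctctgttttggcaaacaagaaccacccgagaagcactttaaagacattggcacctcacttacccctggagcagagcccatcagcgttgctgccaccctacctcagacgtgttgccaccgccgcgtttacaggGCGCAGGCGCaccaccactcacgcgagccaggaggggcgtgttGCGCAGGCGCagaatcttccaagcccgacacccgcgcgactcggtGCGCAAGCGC
Sdhd: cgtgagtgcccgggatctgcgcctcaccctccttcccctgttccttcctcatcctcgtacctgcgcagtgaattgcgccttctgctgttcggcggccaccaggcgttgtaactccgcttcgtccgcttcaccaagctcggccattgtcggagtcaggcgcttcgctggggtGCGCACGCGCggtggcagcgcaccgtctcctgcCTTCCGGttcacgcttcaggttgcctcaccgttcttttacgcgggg
Ndufv2: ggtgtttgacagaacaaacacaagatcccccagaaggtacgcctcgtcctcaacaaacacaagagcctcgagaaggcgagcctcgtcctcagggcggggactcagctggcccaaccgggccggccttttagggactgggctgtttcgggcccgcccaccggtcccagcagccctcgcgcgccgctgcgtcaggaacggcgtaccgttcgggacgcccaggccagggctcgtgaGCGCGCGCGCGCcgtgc
Ndufb7: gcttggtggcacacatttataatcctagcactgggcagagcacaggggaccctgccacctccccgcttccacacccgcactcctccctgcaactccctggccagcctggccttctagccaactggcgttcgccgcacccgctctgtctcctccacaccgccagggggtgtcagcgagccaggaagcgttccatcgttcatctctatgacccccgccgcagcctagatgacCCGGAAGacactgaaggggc
Cox6a1: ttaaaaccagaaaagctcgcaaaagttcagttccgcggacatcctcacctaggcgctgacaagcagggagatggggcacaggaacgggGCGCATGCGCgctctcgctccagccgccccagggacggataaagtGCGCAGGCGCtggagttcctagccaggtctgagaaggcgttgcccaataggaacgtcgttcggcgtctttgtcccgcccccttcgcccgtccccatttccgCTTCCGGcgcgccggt

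Of the 39 members, 29 had an entry in the RefSeq promoter table, in windows from 250 bases before to 50 bases after the start. NRF1 letters, a pattern that reads alike on both strands, were found in 8 of the 29 windows (27.6%), against 6.4% of 27025 windows in the table. GABP letters (CCGGAAG, either strand) were likewise found in 8 of 29 (27.6%), against 9.1% of all windows. YY1 letters (AANATGGCG, either strand) occurred in Ndufa9, Ndufs4 and Ndufs7 (10.3%), against 2.5% of all windows. Sdha held 3 NRF1 matches, Cox6a1 held 2 NRF1 matches and 1 GABP match, Sdhd held 1 of each, and the 2 matches in Ndufv2 overlapped. Both a member that was higher at D6 (Cox6a1) and members that were lower (Sdha, Sdhd, Ndufv2, Ndufb7) held matches, and these are descriptions of letters, not sites of binding.

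On the FPKM scale, which is per length, complex IV held the most abundant members. Cox6a1, a small subunit of the cytochrome oxidase periphery, averaged 226 FPKM over the 21 libraries, Cox4i1, the ubiquitous form of subunit 4, averaged 183 FPKM, and Cox8a, another small subunit, averaged 150 FPKM. The most abundant members elsewhere were Ndufa2 in complex I (81.9 FPKM), the membrane anchor Sdhd in complex II (78.2 FPKM) and the Rieske iron-sulphur protein Uqcrfs1 in complex III (71.2 FPKM). Ndufb7 was the lowest at 11.9 FPKM, with Ndufb5 at 12.7 FPKM. The FPKM ranking depends on annotated exonic length, 4522 bases for Ndufb7 and 4995 for Ndufb5, and counts gave another order. Ndufb7 had 515 to 2197 counts per library against 81 to 918 for Ndufb3, and Sdha 2412 to 8175 against 882 to 4139 for Sdhd.

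The members' summed share of the library was lower at D6 than at D4. In CPM (counts scaled to library depth), all 39 members summed to 4175, 3886 and 3395 in D4 replicates 1, 2 and 3, to 3903, 3837 and 3592 at D4H8, to 3857, 3601 and 3377 at D5, and to 2722, 3390 and 3073 at D6. Every D6 library lay below every D4 library, although the closest, at 3390 and 3395 CPM, nearly met. Pluripotency markers summed to between 121 and 281 FPKM at D4 and between 10.8 and 88.2 FPKM at D6 without overlap (1 of 5 fell), fibroblast markers to at most 17.4 FPKM at D4 and 27.1 FPKM at D6 (2 of 7 rose), progenitor markers to between 143 and 203 and between 149 and 217 FPKM (1 rose and 3 fell of 5), and their part in the members' difference was not tested. In a bulk culture, fewer cells of a type and less RNA per cell cannot be told apart.

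**Figure D1:**
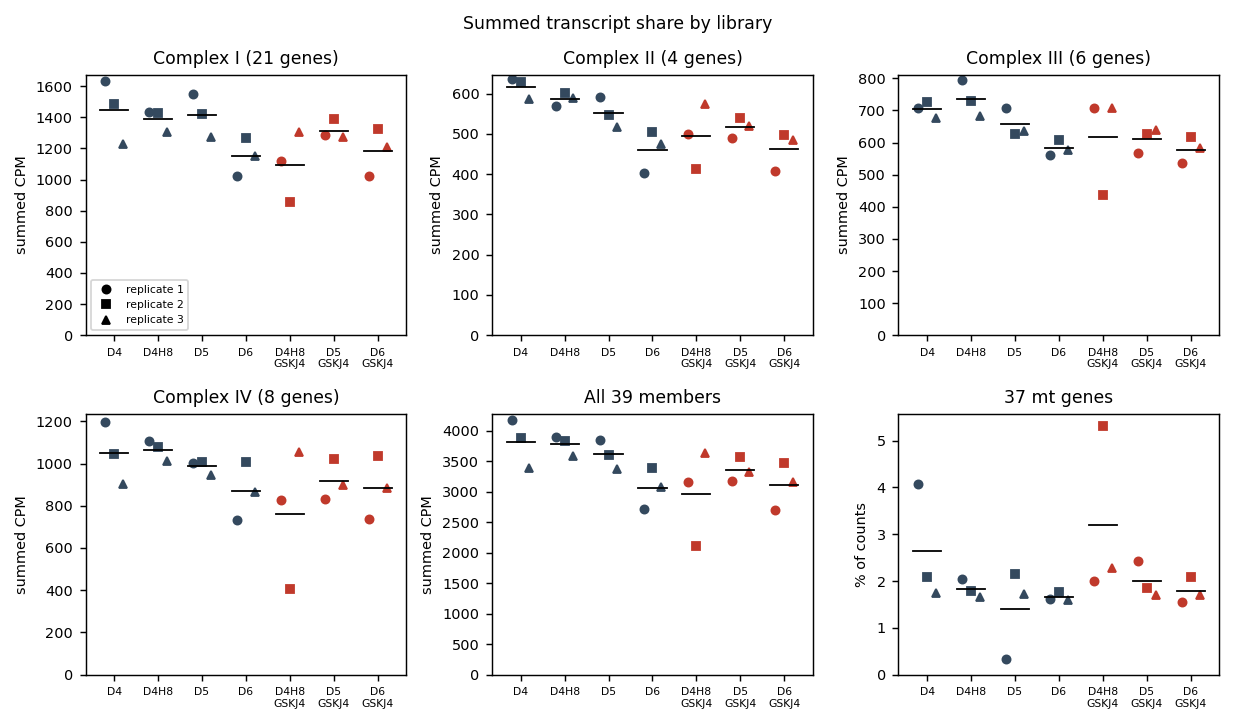
Summed CPM of the members of each complex and the share of counts in the 37 mt genes (vertical axes, from 0) for the 7 groups, with 1 point per library, the symbol giving the replicate number and the bar the mean of 3 libraries. Untreated groups are dark and GSKJ4 groups red. Complex II averaged 617 CPM at D4 and 460 CPM at D6, and treated D4H8 replicate 2 lies lowest in complex IV (404 CPM) and highest in mt genes (5.33%).

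By complex, the mean sum for complex I was 1449 ± 207 CPM at D4 and 1150 ± 122 CPM at D6 (SD, n = 3), with libraries that overlapped. Complex II stood at 617 ± 26.7 CPM at D4, 586 ± 16.2 CPM at D4H8, 552 ± 37.3 CPM at D5 and 460 ± 52.5 CPM at D6, and its D4 and D6 libraries did not overlap. Complex III gave 703 ± 24.0 CPM at D4 and 582 ± 24.8 CPM at D6, again without overlap. Complex IV gave 1049 ± 146 CPM at D4 and 869 ± 137 CPM at D6, with libraries that overlapped.

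Among untreated groups, the share of counts in the 37 mt genes spread most at D4 and D5. It was 4.08%, 2.08% and 1.74% in the D4 libraries, 2.04%, 1.79% and 1.65% at D4H8, 0.335%, 2.14% and 1.73% at D5, and 1.61%, 1.77% and 1.60% at D6. The difference of D6 from D4 was −0.972 percentage points, with an exact two-sided permutation p = 0.2 (adjusted over 7 comparisons, 0.7), where 3 against 3 libraries cannot go below 0.1. Without D4 replicate 1 the difference was −0.25 percentage points. Counting error was at most 0.0106 percentage points for any library (95% Wilson interval). Several mt genes, among them mt-Co2, mt-Co3 and mt-Atp6, share 99.5% to 99.9% of their 75-base words with nuclear copies, and their own counts are uncertain.

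Between D4 and D6, the longest untreated interval, 12 members fell and 1 rose with edgeR's quasi-likelihood test (adjusted p under 0.05), which is 13 of 39 where 63.9% of 17519 genes passed. The members' share of calls was thus 33.3%, below that background. Lower calls covered 31% of all genes, and higher calls 32.9%. The median log2 change of the members was −0.38, against −0.04 for all genes tested, and 31 of 39 estimates were negative. After TMM scaling, the D4 and D6 libraries did not overlap for 12 members, 8 lower and 4 higher at D6, where 70% of genes did not overlap.

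**Figure D2:**
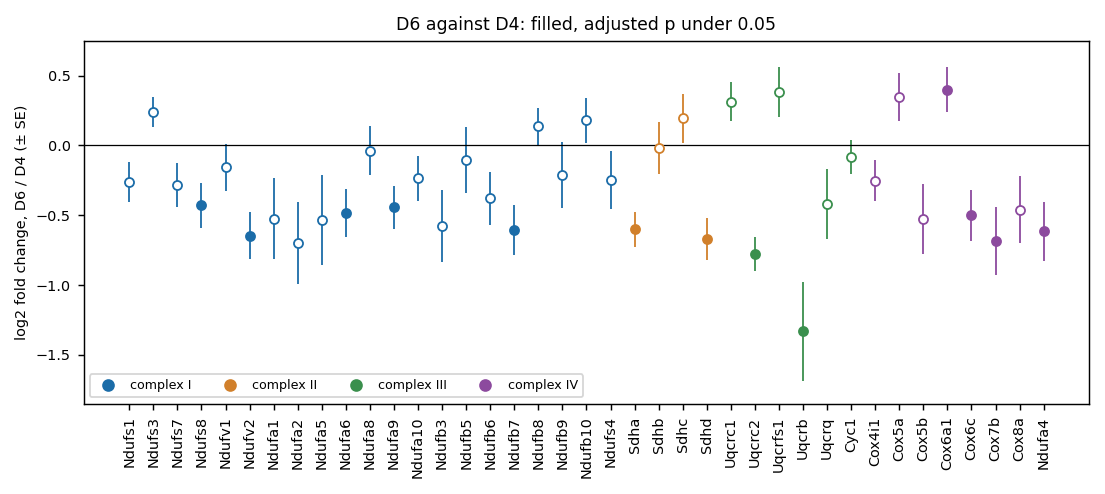
Log2 fold change of D6 over D4 (vertical axis) with its SE for each of the 39 members (horizontal axis), coloured by complex, 3 libraries a stage. Filled points passed adjusted p under 0.05: 12 lie below 0 and 1, Cox6a1, above it, with Uqcrb lowest at −1.33.

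Complex III held the largest changes. Uqcrc2, a core protein of the complex that faces the matrix, stood at 85.1, 86.9 and 73.1 FPKM in the D4 libraries and at 39.8, 47.1 and 50.8 FPKM at D6, and all D6 libraries were lower. Its log2 change was −0.78 ± 0.12 (SE, adjusted p = 8.15e-05 by edgeR), and D4H8 (75.1, 76.0 and 70.4 FPKM) overlapped D4 whereas D5 (57.9, 65.1 and 62.5 FPKM) lay between D4 and D6 without overlap. Uqcrc2 shares 16.5% of its 75-base words with Pdzd9.

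Uqcrb, a small subunit known as the ubiquinone-binding protein, was at 108, 53.2 and 43.8 FPKM at D4 and at 23.9, 33.5 and 23.0 FPKM at D6. All D6 libraries were lower, and D4 replicate 1 was far above the other two at that stage. The log2 change was −1.33 ± 0.35 (adjusted p = 0.00457), and without D4 replicate 1 it was −0.77 (adjusted p = 0.0285). Uqcrb shares 16.7% of its 75-base words with pseudogenes. Like other members named with the processing, it lies opposite an expressed gene, here Gm10767, from which it cannot be told apart without strand. In the same complex, Uqcrfs1, Uqcrc1, Uqcrq and Cyc1, which is cytochrome c1, did not pass. Uqcrfs1 stood at 53.4, 69.7 and 61.3 FPKM at D4 and 83.4, 74.8 and 69.9 FPKM at D6, all D6 libraries higher (log2 0.38 ± 0.18, adjusted p = 0.0762 by edgeR).

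Complex II split into a pair that fell and a pair that did not pass. Sdha, the flavoprotein that oxidises succinate, was at 69.7, 72.0 and 72.6 FPKM at D4 and at 36.1, 50.8 and 49.0 FPKM at D6, without overlap (log2 −0.60 ± 0.12, adjusted p = 0.000766 by edgeR). Sdhd was at 119, 111 and 89.3 FPKM at D4 and at 54.0, 72.8 and 66.6 FPKM at D6, also without overlap (log2 −0.67 ± 0.15, adjusted p = 0.00135). The iron-sulphur subunit Sdhb had a log2 change of −0.02 ± 0.19 and the other anchor Sdhc of 0.19 ± 0.17 (adjusted p = 0.931 and 0.343), with libraries that overlapped.

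In complex I, 5 of 21 members fell and none rose. Among the core subunits, Ndufv2, an iron-sulphur protein of the NADH-oxidising module, was at 71.6, 58.6 and 48.9 FPKM at D4 and at 34.7, 39.6 and 36.3 FPKM at D6, all D6 libraries lower (log2 −0.65 ± 0.17, adjusted p = 0.00388). Ndufs8, an iron-sulphur protein on the path to quinone, fell by 0.43 on the log2 scale (adjusted p = 0.0329), and its libraries overlapped after TMM scaling. Ndufs1, the largest core subunit, was at 19.7, 21.7 and 17.7 FPKM at D4 and at 14.5, 15.4 and 17.4 FPKM at D6, and its log2 change of −0.26 ± 0.15 did not pass (adjusted p = 0.131).

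Among the accessory subunits, Ndufb7 fell by 0.61, Ndufa6 by 0.48 and Ndufa9 by 0.44 on the log2 scale (adjusted p = 0.00841, 0.0231 and 0.0203 by edgeR). Ndufb7 was at 16.5, 13.8 and 12.9 FPKM at D4 and at 7.84, 10.3 and 9.29 FPKM at D6. The remaining 12 accessory subunits ranged from −0.70 (Ndufa2) to 0.18 (Ndufb10) and did not pass.

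Complex IV held members that changed in both directions. Cox7b, Ndufa4 and Cox6c fell, by 0.68, 0.62 and 0.50 on the log2 scale (adjusted p = 0.0233, 0.0207 and 0.0284), and after TMM scaling the libraries of each overlapped. Without D4 replicate 1 they stood at −0.30, −0.38 and −0.27 and none of them passed, nor did any without D6 replicate 1 or without D6 replicate 3. Cox6a1 was at 208, 209 and 187 FPKM at D4 and at 206, 311 and 252 FPKM at D6, and its lowest D6 library lay within the D4 range although the test passed (log2 0.40 ± 0.16, adjusted p = 0.0405). Cox4i1 was at 201, 196 and 199 FPKM at D4 and at 126, 186 and 169 FPKM at D6, lower in FPKM in all D6 libraries but overlapping after TMM scaling, with log2 −0.25 ± 0.15, which did not pass (adjusted p = 0.147).

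The number of calls between D4 and D6 depended on single libraries. Without D4 replicate 1 it was 7 (58% of genes), without D4 replicate 3 it was 22 (60.7%) and without D6 replicate 3 it was 8 (59.4%). Uqcrc2, Uqcrb, Sdha, Sdhd, Ndufv2 and Ndufb7 passed in all 20 alternatives run, whereas Cox6a1 passed in 10 of 20 and the other 6 calls in 16 to 18 of 20. The median of the members was negative in each of those alternatives (−0.60 to −0.24), and D4 replicate 1, which also had the highest mt share of its stage, had a members' median 0.29 above the D4 mean where D4 replicate 3 was 0.32 below it.

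**Figure D3:**
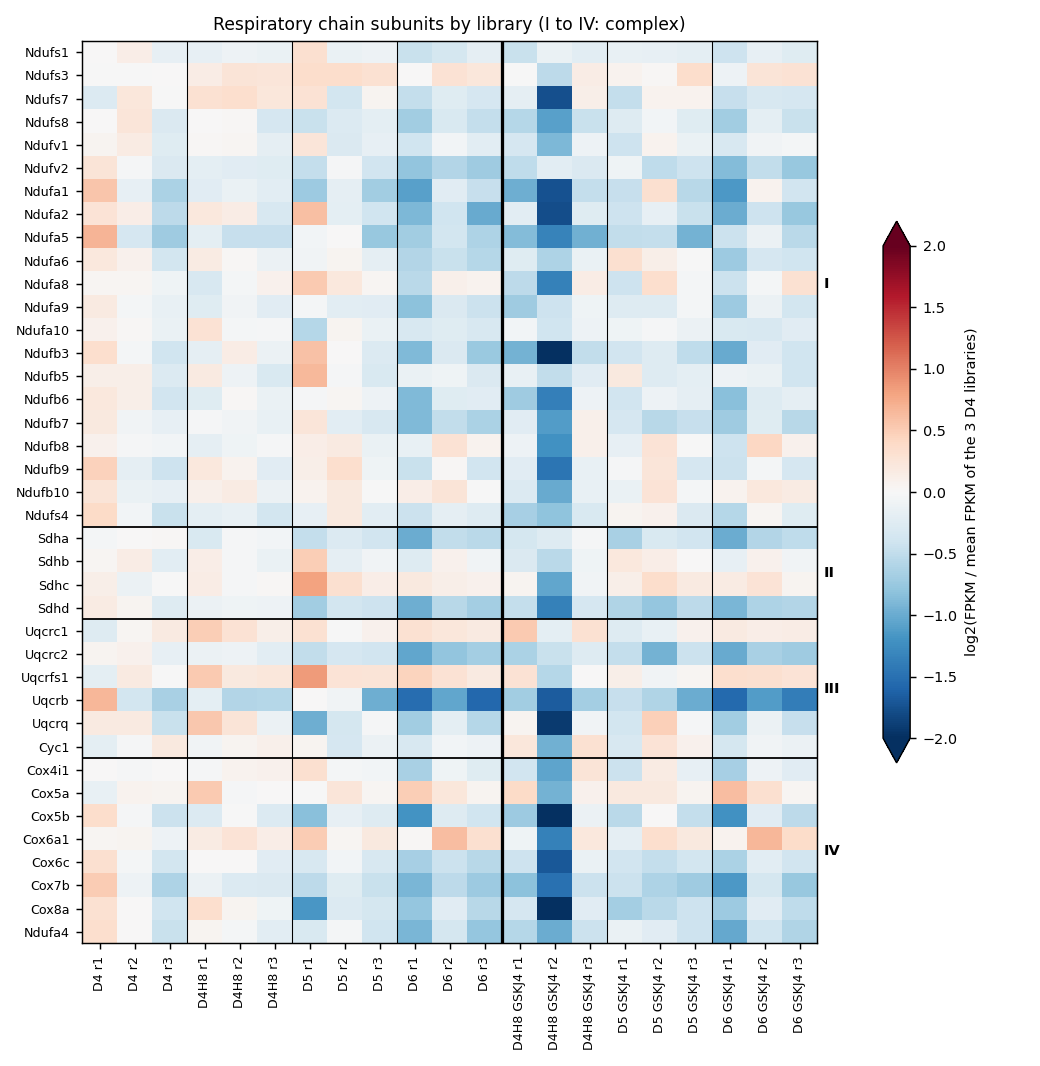
FPKM of each member (rows, by complex) in each library (columns, by group) relative to the mean of the 3 D4 libraries, as log2, with blue lower and red higher, and the thick line separating untreated from GSKJ4 groups. The scale ends at −2 and 2, and 3 values of treated D4H8 replicate 2 lie below it. The column of that library is blue for most members, and the D6 columns are blue for Uqcrb, Uqcrc2, Sdha and Sdhd.

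Single steps gave few calls. From D4 to D4H8, none of the 39 members passed where 4.38% of genes did, none had an unadjusted p under 0.05, where 16.5% of genes did, and DESeq2 also called none. Uqcrc1, the other core protein of complex III, had the lowest p (log2 0.27 ± 0.14, adjusted p = 0.362 by edgeR), followed by Ndufv2 (−0.29 ± 0.17) and Uqcrc2 (−0.20 ± 0.12). Sdha was at 57.6, 70.1 and 69.1 FPKM at D4H8, overlapping D4 in FPKM and lower in all D4H8 libraries after TMM scaling, with a log2 change of −0.18 ± 0.12. Ndufs1, Uqcrfs1 and Cox4i1 had −0.19 ± 0.15, 0.28 ± 0.18 and −0.01 ± 0.15. In all, 2 members, Ndufs3 and Sdha, did not overlap after TMM scaling, against 25.6% of genes. The members' median was −0.12, and without D4 replicate 1 it was 0.14.

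From D4H8 to D5, none of the members passed, where 27.7% of genes did. At an unadjusted p under 0.05, 4 members were found, against 38.5% of genes, and DESeq2 called 3 lower, where it called 13.2% of genes lower. Cox8a was lower in all D5 libraries, at 242, 198 and 181 FPKM and then 85.7, 158 and 150 FPKM, and its log2 change of −0.66 ± 0.24 missed the threshold (adjusted p = 0.0561). D5 replicate 1, the library with 0.335% mt counts, was the lowest of them. Uqcrq, a small subunit of complex III, and Sdhd came next (−0.66 ± 0.25 and −0.38 ± 0.15, adjusted p = 0.0648 and 0.0757 by edgeR). Sdha, Ndufs1, Uqcrfs1 and Cox4i1 had −0.25 ± 0.12, 0.18 ± 0.15, 0.17 ± 0.18 and 0.05 ± 0.15. After TMM scaling 5 members did not overlap, against 43.7% of genes. With the replicate number as a block over all untreated libraries, D4 included, Sdhc was the 1 member that passed, and it was higher, where 30.9% of genes passed.

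From D5 to D6, Uqcrb alone fell, where 34.3% of genes passed. It was at 69.2, 65.3 and 34.8 FPKM at D5, with D5 replicate 3 close to the D6 libraries and overlapping them after TMM scaling, and its log2 change was −0.97 ± 0.35 (adjusted p = 0.0475). The call was made in 11 of 20 alternatives. It was lost with RLE scaling and without any 1 of D4 replicate 2, D4H8 replicates 2 or 3, D5 replicates 1 or 2, and D6 replicates 1, 2 or 3, the count of members called then being 0 or 1. With the replicate block, again shared with D4, 4 members fell, namely Ndufa2, Ndufb3, Ndufb7 and Uqcrb, where 17.2% of genes fell. Ndufb7 and Uqcrc2 were next in the fit without the block (log2 −0.47 ± 0.18 and −0.32 ± 0.12, adjusted p = 0.0539 and 0.0599), and all their D6 libraries were lower. Sdha, Ndufs1, Uqcrfs1 and Cox4i1 had −0.17 ± 0.12, −0.25 ± 0.15, −0.06 ± 0.18 and −0.29 ± 0.15. After TMM scaling 5 members did not overlap, all lower, against 46.9% of genes.

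GSKJ4 was applied to ask how gene expression depends on H3K27 demethylase activity at each stage. At D4H8, the 39 members were all estimated lower in treated cells, with a median log2 change of −0.42 against 0.02 for all genes, yet none passed the edgeR test, where 3.96% of 16269 genes did. An unadjusted p under 0.05 in the lower direction was found for 8 of 39 members, against 11% of genes. In 19 of 39 the treated libraries were all lower after TMM scaling, against 16.8% of genes. DESeq2 called 5 members lower, where it called 5.94% of genes lower.

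**Figure D4:**
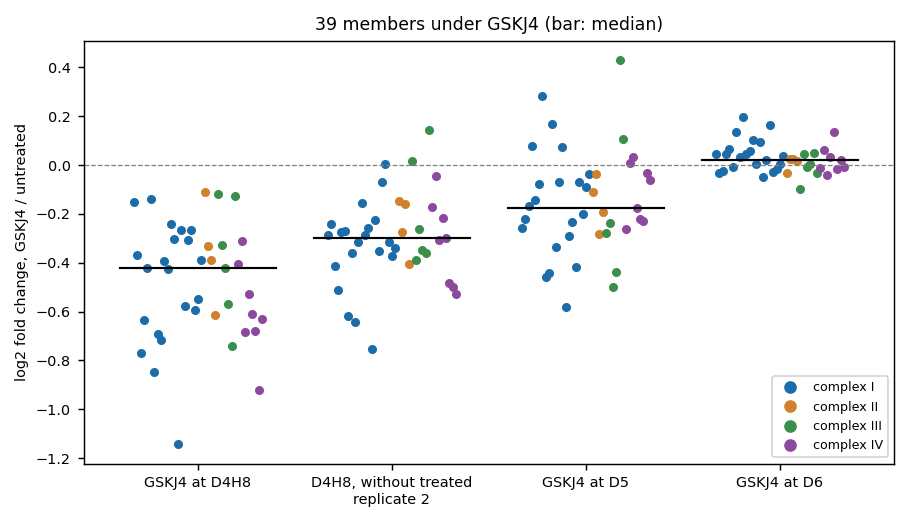
Log2 fold change of GSKJ4-treated over untreated cells (vertical axis) for the 39 members at each stage, and at D4H8 without treated replicate 2, with 1 point per member coloured by complex and the bar at the median. All points lie below 0 at D4H8 (median −0.42), the median is −0.30 without that library, and the points at D6 lie between −0.10 and 0.20.

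These values rested in part on a single library. Summed CPM of the 39 members was 3154, 2111 and 3641 in treated replicates 1, 2 and 3, against 3903, 3837 and 3592 in the untreated libraries, so replicate 2 was far lower and replicate 3 lay within the untreated range. Relative to the mean of untreated D4H8, the members' median was −0.36, −0.97 and −0.25 on the log2 scale in the treated libraries. Leaving out replicate 2, 36 of 39 estimates were negative, the median was −0.30 and 2 members fell, Ndufb3 (log2 −0.76 ± 0.19, adjusted p = 0.0463 by edgeR) and Ndufa4, where 4.48% of genes fell. The mt share moved the other way in that library, at 5.33% against 2.00% and 2.27% in the other treated libraries.

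The lowest p among members belonged to Ndufa5, Ndufa4 and Ndufa1. Ndufa5, an accessory subunit of complex I, was at 34.3, 28.4 and 28.5 FPKM untreated and at 21.5, 15.6 and 20.2 FPKM treated (log2 −0.72 ± 0.20, adjusted p = 0.074). Ndufa4 of complex IV was at 81.1, 76.1 and 67.7 FPKM untreated and at 52.9, 39.2 and 58.5 FPKM treated (log2 −0.63 ± 0.18, adjusted p = 0.0756). For both, all treated libraries were lower, replicate 2 lowest.

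Ndufa1, which is needed for assembly of the membrane arm of complex I, was at 67.1, 71.9 and 67.9 FPKM untreated and at 39.8, 23.4 and 56.5 FPKM treated (log2 −0.85 ± 0.27, adjusted p = 0.0977). Ndufb3 had the largest estimate (−1.14 ± 0.41, adjusted p = 0.125), from 35.0, 43.8 and 36.2 FPKM to 20.6, 6.20 and 27.9 FPKM. Of the members followed throughout, Sdha was at −0.11 ± 0.17, Ndufs1 at −0.15 ± 0.18, Cox4i1 at −0.40 ± 0.26 and Uqcrfs1 at −0.42 ± 0.22, each with overlapping libraries and adjusted p of 0.256 to 0.718. By complex, the medians were −0.42 for complex I, −0.36 for complex II, −0.37 for complex III and −0.62 for complex IV, and without treated replicate 2 they were −0.31, −0.22, −0.30 and −0.30.

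Gene length moved with these values. At D4H8 the median GSKJ4 change of all genes was −0.35 for exonic lengths under 1 kb, −0.21 for 1 to 2 kb, −0.02 for 2 to 4 kb and 0.13 over 4 kb, and that of the members was −0.63, −0.63, −0.33 and −0.15 in the same classes (8, 13, 13 and 5 genes). From D4 to D6 the medians of all genes were −0.60, −0.27, −0.14 and 0.17, and those of the members −0.49, −0.43, −0.16 and −0.26. The part of length in either result was not tested. Fibroblast markers summed to between 9.96 and 27.3 FPKM in treated and 5.72 and 13.7 FPKM in untreated D4H8 libraries, MN markers to between 80.9 and 193 and between 199 and 344 FPKM (3 of 7 fell), progenitor markers to between 57.8 and 116 and between 218 and 295 FPKM (2 of 5 fell), astrocyte markers to between 1.58 and 2.95 and between 3.0 and 5.3 FPKM, and pluripotency markers to between 106 and 237 and between 54.9 and 232 FPKM, and their part in the result was not tested either.

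At D5, no member passed under GSKJ4, where 0.00613% of genes did (1 of 16309), and DESeq2 called none. At an unadjusted p under 0.05, 2 members were lower, against 2.39% of genes. Of the estimates 31 were negative, with a median of −0.17. Without D5 replicate 1, the library with few mt reads, the median was −0.08 and no member had an unadjusted p under 0.05, without treated replicate 3 none had either, without D5 replicate 2 there was 1 and without D5 replicate 3 there were 6 lower. Without treated replicate 2 the median was −0.18. The counts with a library left out were not compared with the share of all genes in the same fits. Uqcrfs1 was at 110, 73.9 and 73.4 FPKM untreated and at 66.7, 58.5 and 63.1 FPKM treated, all treated libraries lower (log2 −0.50 ± 0.20, adjusted p = 0.976 by edgeR), and without D5 replicate 1 its log2 change was −0.26. Ndufb3 and Ndufb7 followed, at −0.58 ± 0.25 and −0.42 ± 0.20, and Sdha, Ndufs1 and Cox4i1 had −0.11 ± 0.14, −0.26 ± 0.17 and −0.26 ± 0.18. After TMM scaling, 5 members were lower without overlap (Ndufb3, Ndufb6, Uqcrc2, Uqcrfs1 and Cox6c), against 6.38% of genes. Ndufb6 shares 27.8% of its 75-base words with Smim27.

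At D6, treated and untreated libraries overlapped after TMM scaling for each of the 39 members, where 5.29% of genes did not overlap. No member passed, none of 16301 genes did with edgeR (0%), no member had an unadjusted p under 0.05, where 1.36% of genes did, DESeq2 called no member, and the replicate block, under which 257 genes passed, called no member. That block, which the paired numbers allow, put Ndufa5, Cox6c and Ndufb7 higher at an unadjusted p under 0.05, against 4.43% of genes (log2 0.19 ± 0.08, 0.13 ± 0.06 and 0.16 ± 0.07, adjusted p = 0.34, 0.355 and 0.37 by edgeR), and each was higher in the treated library of all 3 pairs. Without the block the estimates ranged from −0.10 (Uqcrc1) to 0.20 (Ndufa5), with a median of 0.02. In that fit Ndufs1, Uqcrfs1, Cox4i1 and Sdha had 0.05 ± 0.09, −0.01 ± 0.11, −0.01 ± 0.17 and −0.03 ± 0.15. With the block the same genes had smaller SEs, at 0.045 ± 0.052, −0.001 ± 0.052, −0.013 ± 0.040 and −0.029 ± 0.044. Summed CPM was 2703, 3476 and 3160 in treated replicates 1, 2 and 3, against 2722, 3390 and 3073 in the untreated libraries with the same numbers, so libraries of the same number lay closer to each other than to their group. Sdha was at 36.1, 50.8 and 49.0 FPKM untreated and at 36.0, 47.5 and 50.2 FPKM treated.

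The difference of the GSKJ4 effect between stages was tested in a fit over 18 libraries. The effect at D6 minus that at D4H8 was positive for all 39 members, with a median of 0.50, but none passed, where 0.735% of 18103 genes did, and DESeq2 called none. At an unadjusted p under 0.05, 9 members were higher, against 7.15% of genes. Ndufa5, Ndufs8 and Sdhd had the lowest p (log2 0.93 ± 0.31, 0.70 ± 0.24 and 0.64 ± 0.25, adjusted p = 0.186, 0.192 and 0.256 by edgeR), and Sdha had 0.09 ± 0.20. The effect at D5 minus that at D4H8 was positive for 33 members (median 0.29), and none passed where 0.249% of genes did, with DESeq2 calling none and 5 members higher at an unadjusted p under 0.05, against 5% of genes. D6 minus D5 gave 32 positive values (median 0.21), with no call among members or genes (0%) by edgeR, none among members by DESeq2, and 1 member, Ndufa5, at an unadjusted p under 0.05, against 1.03% of genes. Both differences from D4H8 share its libraries, and without treated replicate 2 the medians were 0.12 for D5 minus D4H8 (28 positive, 4 higher at an unadjusted p under 0.05) and 0.36 for D6 minus D4H8 (36 positive, 5 higher). The counts without that library were not compared with the share of all genes in the same fits. The median of D5 minus D4H8 was also 0.19 without D4H8 replicate 1 or without D5 replicate 3, and that of D6 minus D5 was 0.11 without D5 replicate 1 and 0.10 without treated D6 replicate 2.

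The mitochondrial genome's own subunits had positive estimates under GSKJ4 at D4H8. Of 13 mt protein-coding genes 12 were tested, and 12 of 12 estimates were positive, with a median of 0.78. These estimates came from the same libraries and are not 12 separate observations. Counts of mt-Nd3 and mt-Nd4l reached at most 60 and 55 in any library, and several other mt genes share most of their words with nuclear copies. Only mt-Nd2, a complex I subunit of the membrane arm, passed, at 1341, 1178 and 1054 FPKM untreated and 2800, 8394 and 3458 FPKM treated (log2 2.04 ± 0.43, adjusted p = 0.037). Without treated replicate 2 it was 1.29 (adjusted p = 0.0122), and without any 1 untreated library it did not pass (adjusted p = 0.128 to 0.157). Its treated libraries were also all higher at D5 (3368, 2745 and 2342 against 110, 1629 and 1119 FPKM) and at D6 (1399, 2049 and 1666 against 1059, 1247 and 1075 FPKM). At those stages it did not pass in the edgeR fits without the replicate block (adjusted p = 0.976 and 1). At D6 the replicate numbers were taken to pair the libraries. The value of mt-Nd2 with the block is not given here, so the fit without it does not settle that stage. The mt share as a whole was 3.20% treated and 1.83% untreated at D4H8, with an exact permutation p = 0.2 (adjusted 0.7), and without treated replicate 2 the treated mean was 2.14%, a difference of 0.311 percentage points. Treated replicate 1, at 2.00%, lay within the untreated range of 1.65% to 2.04%.

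Related genes were examined as whole lists. From D4 to D6, 31% of all genes tested were called lower and 32.9% higher. Of 23 further subunits of the chain, 11 fell from D4 to D6 and none rose, with Ndufs6 lowest (−1.39 ± 0.31, adjusted p = 0.00132), followed by Ndufa12 and Uqcr10 at −1.19 and −1.10 and by Cycs, cytochrome c (adjusted p = 0.00291). Of 16 ATP synthase genes 4 fell, and of 40 assembly factors 13 fell and 3 rose, with Nubpl, which delivers iron-sulphur clusters to complex I, at −1.34 and Cox19 at 1.31. Among 5 tested isoforms of other tissues, Cyct, the testis form of cytochrome c, fell by 2.21 on the log2 scale, Cox6b2, another testis form, also fell (adjusted p = 0.000867), and Ndufa4l2 rose by 1.19. The mitochondrial ribosome list, which includes some pseudogenes, showed 63 lower and 2 higher among 80 tested, for example Mrpl42, Mrpl33 and Mrpl2 at −1.33, −1.29 and −1.24.

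Among 15 biogenesis regulators, 7 fell and 2 rose from D4 to D6, where 31% of all genes fell and 32.9% rose. Ppargc1a, the coactivator PGC-1α, rose by 3.18 ± 0.40 (adjusted p = 1.05e-05), from 0.19, 0.10 and 0.26 FPKM to 1.88, 1.54 and 1.30 FPKM, and remained a low-abundance transcript. Tfam, which packages and transcribes mitochondrial DNA, fell by 1.23, Gabpa, the DNA-binding subunit of GABP, by 1.23, and Pprc1 by 1.07 on the log2 scale. Of 15 citric acid cycle genes 7 fell and 1 rose, with Suclg2 lowest at −2.50.

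By edgeR, glycolysis genes gave calls under GSKJ4 at D4H8 where the nuclear-encoded chain genes gave none. This difference between the lists was not tested. Of 19 glycolysis genes, 10 fell and none rose, where 3.96% of all genes passed in either direction. Ldha was at −2.53 ± 0.36, Slc2a1 at −1.63 ± 0.29, Pgk1 at −1.46 ± 0.21 and Pfkl at −1.44 ± 0.34 (adjusted p = 0.0136, 0.0246, 0.015 and 0.0498 by edgeR). They passed in 13, 11, 11 and 9 of 14 alternatives, with adjusted p up to 0.0665, 0.113, 0.0729 and 0.161 across these. No gene of the further subunits, ATP synthase, citric acid cycle, assembly factor or mitochondrial ribosome lists passed by edgeR in that comparison. An unadjusted p under 0.05 in the lower direction was found for 10, 9, 3, 4 and 19 of them, in that order, against 11% of all genes. DESeq2 called 4, 5, 0, 3 and 5 of them lower, against 5.94% of all genes. All 23 further subunits and all 16 ATP synthase genes had negative estimates (medians −0.58 and −0.56). From D4 to D6, 7 glycolysis genes rose and 7 fell, where 32.9% of all genes rose and 31% fell. Pfkp, Hk1 and Eno2 were at 3.99, 2.80 and 2.57 and Slc2a1 at −2.17.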

How the data were processed

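Mouse polyA RNA-seq libraries, 3 for each of 7 groups, were analysed from the gene counts and FPKM values deposited by the authors. The authors trimmed reads with Fastp, aligned them to mm10 with HISAT2, sorted them with SAMtools, counted them with HTSeq-count and deposited raw counts, and FPKM, scaled by exonic length and counted reads. The strand setting of the counting is not given in the sources used here. Besides Uqcrb, exons of Ndufs1, Ndufs3, Ndufa2, Ndufb5, Ndufb6, Cox4i1, Cox5a and Cox6c overlap those of expressed genes on the other strand. Reads of these members may include reads of those genes, for example Emc8 for Cox4i1 and Vps13b for Cox6c. Recalculation of FPKM out of these counts left differences of at most 0.005. Symbols came from GENCODE M21 (55140 of 55400 identifiers matched) and promoters from RefSeq GRCm38.p6.

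Counts were tested with edgeR 4.0.16 (TMM, filterByExpr with a minimum count of 10, quasi-likelihood test, Benjamini-Hochberg adjusted p under 0.05) in R 4.3.3. Stages were fitted over the 12 untreated libraries, each GSKJ4 contrast over its own 6 and the differences of GSKJ4 effects over 18, and p-values were adjusted over all genes tested. SE values are those implied by the quasi-likelihood F. The study used DESeq2 for its gene tests, which was run here as an alternative. Alternatives were DESeq2 1.42.0, other scalings, other filters, a replicate block, removal of mt genes, 1 fit over 21 libraries and leaving out each library. The fitting code was tested on simulated data. In those simulations edgeR kept its false calls near the set rate, whereas DESeq2 at 3 against 3 libraries exceeded it, with the same calls as in its standard design, so counts from DESeq2 are the more permissive.

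Replicate numbers were taken to pair libraries where every pair's deviations from the group means correlated above 0.1. This held for D5 against D4H8 (0.314, 0.147 and 0.136), D6 against D5 (0.310, 0.144 and 0.226) and GSKJ4 at D6 (0.663, 0.316 and 0.446). Whether libraries came from separate cultures is not stated beyond the label of biological replicate, so p-values measure the spread between these libraries. Members and lists were chosen with earlier results of these data known. Named genes were, per comparison, up to 6 members with the largest change past the threshold in each direction (or the 3 with the lowest p where fewer than 3 passed), the most abundant member of each complex, and Sdha, Uqcrfs1, Cox4i1 and Ndufs1. Mrpl42, Mrpl33 and Mrpl2 were named in place of 2 pseudogenes, and Sdhb, Sdhc and Ndufb3 at D4H8 were added, after their values were seen. Overlap of libraries was read on TMM-scaled CPM unless FPKM is named. Shares carry 95% Wilson intervals, which cover counting error only.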

Additional observations from a re-analysis of the deposited data

Results flagged for a closer look

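Among the members, no GSKJ4 effect differed between stages past the threshold. In the related lists, Ldha, lactate dehydrogenase A, was singled out because its GSKJ4 effect at D6 minus that at D4H8 was 2.31 ± 0.51 on the log2 scale (adjusted p = 0.0434 by edgeR). The call was made in 12 of 25 alternatives, with adjusted p from 2.08e-13 to 0.111, and without treated D4H8 replicate 2 the difference was 2.1 (adjusted p = 0.0903). Ldha was at 229, 325 and 359 FPKM untreated and 39.01, 33.4 and 91.8 FPKM treated at D4H8 (log2 −2.53), and at 163, 237 and 216 FPKM untreated and 126, 152 and 249 FPKM treated at D6 (log2 −0.24, adjusted p = 1).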

How the results depend on the processing

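Counts of members called moved with the processing, and the cause was not tested. Counts given below without a share of all genes do not show whether the members moved more than other genes. From D4 to D6, where 13 members passed, upper-quartile scaling and no filter on low counts each gave 21, where 65.6% of 17519 and 34.1% of 34033 genes passed, and leaving out 1 library gave 7 to 22. From D5 to D6 (1 call), DESeq2 gave 2, RLE scaling 0, no filter 4, the replicate block 4, upper-quartile scaling 5, a minimum of 10 counts throughout 2, removal of mt genes 4 and leaving out 1 library 0 to 5, with 18.1% to 38.6% of genes passing under the former settings. From D4H8 to D5 (0 calls), DESeq2 gave 3, no filter 2, RLE scaling, upper-quartile scaling, the replicate block and removal of mt genes 1 each, and leaving out 1 library 0 to 4, with 14.7% to 31.1% of genes passing under the former. For GSKJ4 at D4H8 (0 calls), DESeq2 gave 5 (13.6% of genes), no filter 9 (7.34%), the replicate block 6 (14%), the fit over 21 libraries 3 (11.2%) and leaving out 1 library 0 to 2. For the differences of GSKJ4 effects (0 calls), no filter gave 1 for D5 minus D4H8 and 2 for D6 minus D4H8. GSKJ4 at D5 and at D6 gave 0 calls under every alternative run. The block also gave 16 calls from D4 to D6, and there, from D4 to D4H8 and for GSKJ4 at D4H8 and D5 the numbers were not taken to pair the libraries. DESeq2 exceeded its error rate on simulated data at this size, so its counts are the more permissive. Between D4 and D6 the all-gene median was −0.04 with TMM and −0.19 under upper-quartile scaling, which gave 21 lower and 0 higher members where TMM gave 12 and 1.

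Summed FPKM in place of CPM gave log2 ratios for complex III of −0.26 for D6 against D5 and −0.35 for D6 against D4. Of 3241 repeats of single-gene results, 2918 kept direction and call, 191 lost a call, 91 gained one and 41 changed sign, the last only for estimates between −0.12 and 0.18. Cox4i1 from D4 to D4H8 changed sign to 0.0 with DESeq2, RLE scaling and no filter, and to 0.02 without mt genes and in the fit over 21 libraries. Sdha for D5 minus D4H8 changed sign to 0.0 under no filter and under upper-quartile scaling and to 0.01 under the 10-count minimum, and Uqcrfs1 under GSKJ4 at D6 to 0.0 with upper-quartile scaling. Leaving out 1 library moved Cox4i1 from −0.04 to 0.08 (D4 to D4H8), −0.11 to 0.07 (D4H8 to D5), −0.13 to 0.11 (GSKJ4 at D6) and −0.1 to 0.43 (D5 minus D4H8). It moved Ndufs1 from −0.01 to 0.21 (D4H8 to D5), −0.0 to 0.1 (GSKJ4 at D6) and −0.22 to 0.09 (D5 minus D4H8). Sdha ran from −0.14 to 0.08 (GSKJ4 at D6), −0.09 to 0.04 (D5 minus D4H8), −0.02 to 0.2 (D6 minus D4H8) and −0.01 to 0.21 (D6 minus D5). Uqcrfs1 ran from −0.08 to 0.31 (D4H8 to D5), −0.2 to 0.18 (D5 to D6), −0.08 to 0.1 (GSKJ4 at D6) and −0.26 to 0.18 (D5 minus D4H8). With 3 libraries a group, differences smaller than the spread between libraries were not detectable.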

Other observations

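Glycolysis genes were also estimated lower under GSKJ4 at D5, where 18 of 19 estimates were negative with a median log2 change of −0.82. None passed the edgeR test at that stage, and 13 had an unadjusted p under 0.05 in the lower direction, against 2.39% of all genes. DESeq2 called 12 lower, a count that was not compared with all genes. At D6 the median was −0.09, with 17 of 19 estimates negative, none under an unadjusted p of 0.05 and no DESeq2 call. The further subunits of the respiratory chain had medians of −0.11 at D5 and 0.05 at D6 in the same comparisons, with no call by either tool and with 2 and 0 genes under an unadjusted p of 0.05.

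Of 80 mitochondrial ribosome genes, 17 fell between D4H8 and D5, where 27.7% of all genes passed in either direction. Another step, D5 to D6, gave 20 that fell, where 34.3% of all genes passed in either direction. The share of all genes that fell in these fits is not given here, so the counts cannot be ranked against it. In other fits, lower calls alone covered 13.2% of genes from D4H8 to D5 (DESeq2) and 17.2% from D5 to D6 (replicate block). The respiratory chain members gave 0 and 1 calls in those steps, or 1 and 4 with the replicate block. The difference between the lists was not tested.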
